A study of Mus musculus with 4 samples.

Results

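Plasmacytoid dendritic cells (pDC) were taken from 4 single-cell RNA libraries of mouse liver, chosen by their own UMIs of 6 genes. Of the 42454 barcodes with at least 500 UMIs (unique molecular identifiers, one per captured RNA molecule), at least 300 genes and at most 25% mitochondrial UMIs, 419 had at least 3 UMIs of Siglech and at least 1 of Bst2, none of the T cell gene Cd3e, the endothelial gene Stab2 or the B cell gene Ms4a1, and fewer than 3 of the Kupffer cell gene Clec4f. The libraries crossed 2 genotype labels of the transcription factor gene Mef2d, KO and WT, with 2 tissues, premalignant liver and early hepatocellular carcinoma (eHCC). Each combination was represented by 1 library of dissociated tissue, read with 10x Genomics 5' chemistry. The part of Mef2d that was deleted, the cells or driver of any deletion, the way the tumours arose, and the number, sex, age and strain of the mice behind each library are not stated in the sources used here. As every group was a single library, nothing could be tested between groups, and differences are given as ratios with 95% intervals that cover counting error only. Runs of 4 values are ordered as KO then WT at the premalignant stage, followed by KO then WT at eHCC.

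Plasmacytoid dendritic cells are rare immune cells that circulate in blood and sit in lymphoid organs and in tissues such as the liver. They carry the endosomal nucleic acid receptors TLR7 and TLR9, and when these are engaged they can secrete type I interferon in large amounts through the factor IRF7. Their identity depends on the E protein TCF4 (E2-2). In mice they are recognised by the surface receptors Siglec-H and BST2 and by the gut-homing chemokine receptor CCR9, and in tumours they are often described as quiescent, with little interferon output. MEF2D belongs to the MADS-box family of transcription factors, whose binding site is AT-rich.

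The members numbered 132, 128, 94 and 65. They held 1321940, 1250339, 1243599 and 874233 UMIs in sum, with medians per cell of 9369.5, 8991.5, 12936.5 and 11623 UMIs, against 4487, 5024.5, 7470.0 and 8801 over all passing barcodes of the same libraries. No member barcode was a member in another library, although each pair of libraries shared 27 to 46 barcode sequences. The threshold on Siglech fell in a thin stretch of the distribution, but less clearly in the WT-labelled eHCC library. In that library 73 barcodes that met the other terms sat at 1 UMI, and a threshold of 2 UMIs gave 77 members. Median Siglech UMIs per member were 24, 20, 24 and 21, while 0, 2, 0 and 5 members sat at exactly 3 UMIs, and 5, 1, 3 and 12 barcodes sat just outside at 2 UMIs. A further 66, 62, 12 and 10 barcodes had at least 3 Siglech UMIs and failed another term, most often Stab2 in the premalignant libraries (41 and 51 barcodes) and Cd3e at eHCC (11 and 10). Their median UMIs per barcode were 17016, 14649, 20106 and 27488.5. All of them had a UMI of Tcf4, and 65, 61, 11 and 8 had one of Ccr9, so the rule left out barcodes with these pDC genes.

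The WT-labelled eHCC library stood apart from the rest. Of its 65 members, 28 carried at least 3 UMIs of a set of macrophage genes used to flag barcodes, against 2 members in each of the other libraries. That set is not the list of 12 macrophage markers summed next, by which 3.03%, 9.38%, 2.13% and 50.8% of members held 3 or more UMIs. Below, macrophage-RNA barcodes are the flagged ones, so some members with 3 or more UMIs of the 12 markers stay in. Summed over the 12 macrophage markers, among them the complement genes C1qa to C1qc and the receptor gene Csf1r, members held 62.0, 130.4, 32.2 and 1371 CPM (UMI counts scaled to a library sum of 1e+06 over the members), while all other barcodes of the same libraries held 1023, 3141, 952 and 7449. The high library among members was also the high one among the other barcodes, and only Timd4 of the 12 markers was at 0 there. Values without barcodes holding 3 or more macrophage UMIs, which left 130, 126, 92 and 37 members, are therefore given beside the list medians between the labels at eHCC and beside many of the genes. Erythroid transcripts stood at 36.3, 5527, 21062 and 116 CPM in members, so the KO-labelled eHCC library carried the most, as it did in the other barcodes (724, 2917, 40822 and 3147 CPM). Hepatocyte transcripts summed to 929, 538, 45.0 and 260 CPM and liver endothelial ones to 477, 930, 164 and 287. Neutrophil transcripts ranged from 19.7 to 1496 CPM, the latter in the WT-labelled premalignant library, where 1.56% of members held 3 or more such UMIs. Monocyte transcripts ranged from 2324 to 5402 CPM, with the highest value in the WT-labelled eHCC library, where Lyz2 led. In the other libraries they were led by Ly6c2 (1518, 1664 and 1923 CPM), which is also on the list of pDC identity genes used below. The remaining markers of other cells stood low or varied less. T cell genes summed to 53.8 to 129 CPM, NK cell genes to 16.0 to 165, plasma cell genes to 16.0 to 49.9, mature dendritic cell genes to 18.5 to 28.0, mast cell and basophil genes to 5.72 to 24.2, stellate cell genes to 1.60 to 143 and cholangiocyte genes to 19.3 to 45.8. The stellate value of 143 CPM was in the KO-labelled premalignant library, where 0.758% of members held 3 or more such UMIs. B cell genes reached 780 to 1413 CPM, type 1 conventional dendritic cell genes 139 to 320 and type 2 conventional dendritic cell genes 761 to 1162. Ighm led the B cell genes in each library (726 to 1287 CPM). Cd7, also on the pDC identity list, led the type 2 genes in each (225 to 490 CPM). Leaving out barcodes with 3 or more UMIs of any other lineage, an alternative used below, kept only 72, 63, 61 and 26 members. Beside the macrophage flag, type 2 conventional dendritic cell genes flagged 34, 26, 16 and 14 members. Type 1 genes flagged 16, 7, 12 and 12, and liver endothelial genes 15, 36, 5 and 6. A barcode could have several flags, and whether pDC themselves made these transcripts was not tested. The part of any such RNA in a result was not tested unless a value without the barcodes concerned is given.

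Mef2d itself did not follow the labels. Among members Mef2d stood at 159.6 CPM (95% interval 139 to 183), 114 (96.4 to 135), 155 (134 to 179) and 93.8 (74.6 to 116). The KO-labelled library was thus the higher one at both stages, with log2 ratios KO over WT of 0.48 (0.17 to 0.80) and 0.73 (0.35 to 1.12), and the latter was 0.69 without the macrophage-RNA barcodes. All other barcodes showed the same order, at 102, 72.5, 95.0 and 61.5 CPM. Whether a deleted part would lie within the RNA counted by a 5' assay is not given, so these counts do not check the labels, and KO and WT below name labels only. Of the other family members, Mef2c was the best covered, at 776, 769, 749 and 673 CPM. Mef2a stood at 246, 185, 141 and 175 CPM, and Mef2b had 1 UMI in all. Of 10 genes of the MEF2 list with enough UMIs, 7 were higher in the KO-labelled premalignant library (median log2 ratio 0.38), where 54.4% of all genes tested were (0.05). At eHCC 5 of 10 were (0.03, and 0.05 with 5 of 8 higher without the macrophage-RNA barcodes), near the 52.4% of all genes (0.02).

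The members held the transcripts of pDC that the rule had not used. The genes Tcf4 and Ccr9 were not used by the rule, and all 419 members had a UMI of at least one of them. A UMI of Tcf4 alone did not set members apart in the WT-labelled eHCC library. There, 63 of 73 barcodes with 1 Siglech UMI that met the other terms had it. Of those 73, 68 held at least 3 UMIs of C1qa to C1qc together, and 3 had Ccr9. The 5 members of that library at exactly 3 Siglech UMIs had Tcf4 and no Ccr9, and 3 of them held such C1q UMIs. Tcf4 stood at 2352, 1894, 1773 and 1797 CPM in members and at 407, 452, 57.2 and 136 in all other barcodes. Ccr9 stood at 1229, 1082, 1589 and 993 CPM, against 30.8, 15.9, 4.66 and 2.90 in the others. Members were above the rest in all 4 libraries for both genes. Irf8, a factor shared with type 1 conventional dendritic cells, was at 3434, 3552, 2910.1 and 2614 CPM, and the pDC factors Spib and Runx2 were at 477, 396, 466 and 249.4 and at 939.5, 733, 547 and 606 CPM. All 37 genes of the pDC identity list that the files hold were detected, and the list summed to 29125, 29065, 27329 and 21314 CPM in members against 2804, 2465, 3212 and 2321 in the other barcodes. The WT-labelled eHCC library had the lowest sum.

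**Figure D1:**
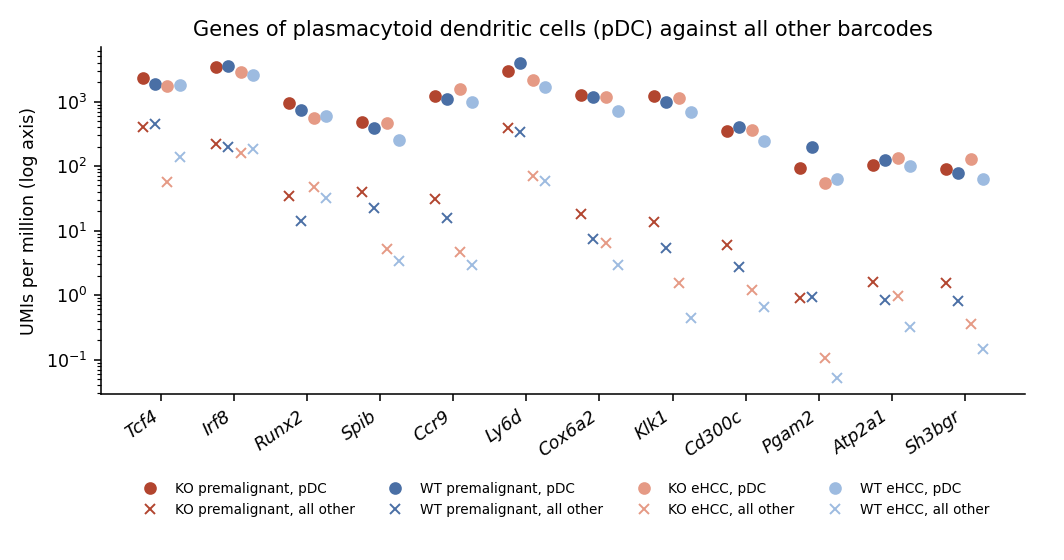
CPM (log axis) of 12 genes in pDC members (circles) and in all other passing barcodes (crosses) of the 4 libraries, 1 point per library. Members lay above the other barcodes for each of these genes in each library, from Tcf4 (1773 to 2352 against 57.2 to 452 CPM) to Pgam2 (53.9 to 197 against 0.0518 to 0.939).

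The 15 genes most particular to the members by level were ranked by their lowest ratio to all other barcodes over the 4 libraries, and several belonged to striated muscle. The order was Pgam2, Klk1, Gm21762, Cd209d, Cox6a2, AC140186.1, Klk1b27, Atp2a1, Sh3bgr, Cd300c, Foxr1, Havcr1, Smim5, Pdzd4 and Adam11, with lowest ratios from 104-fold down to 41.0-fold. Pgam2, the muscle form of phosphoglycerate mutase, stood at 93.8, 197, 53.9 and 64.1 CPM in members and at 0.904, 0.939, 0.107 and 0.0518 in the rest, a ratio of 104-fold to 1236-fold. Cox6a2 encodes the heart and muscle form of a cytochrome oxidase subunit, and stood at 1274, 1190.1, 1193 and 715 CPM. Its level was 18.0, 7.34, 6.44 and 2.97 CPM in other barcodes, and it had no UMI in the conventional dendritic cells compared here. Atp2a1, the fast-twitch muscle calcium pump, stood at 102, 124, 133 and 102 CPM, and Sh3bgr at 90.8, 76.8, 129 and 64.1. Klk1, a tissue kallikrein, was at 1211, 979, 1121 and 679 CPM in members against 13.4, 5.45, 1.53 and 0.44 elsewhere. Klk1 and Klk1b27 have near-identical or close paralogs, as do Hspa1a and Hspa1b, the Ly6 and Ifi27 genes and the MHC class I genes, and reads of such genes can be split between copies. A list of 42 striated muscle genes was put together after this ranking was seen. Only 8 of them at the premalignant stage and 7 at eHCC had at least 20 UMIs in both libraries together. These lay on both sides: 4 of 8 were higher in KO at the premalignant stage (median log2 ratio 0.02, beside 54.4% of all genes). At eHCC 3 of 7 were (-0.25, beside 52.4%). Without the macrophage-RNA barcodes the latter median was -0.77, again with 3 of 7 higher, beside 53.9% of all genes.

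The promoter of Pgam2 was searched for the MEF2 consensus because its product is a known muscle gene and the study concerns a MEF2 factor. The window ran from 250 bases before to 50 bases after each RefSeq start (assembly GRCm38.p6), and both strands were read. The consensus occurred in 3.70% of all 27025 genes, in 6 of 31 muscle genes, which is 19.4%, and in 1 of the 9 genes above that had an entry. The match of Pgam2 lay 80 bases before the start. The 150 bases before its start, chr11:5803797-5803946 on the minus strand, are printed 5' to 3' with the match in capitals:
Pgam2: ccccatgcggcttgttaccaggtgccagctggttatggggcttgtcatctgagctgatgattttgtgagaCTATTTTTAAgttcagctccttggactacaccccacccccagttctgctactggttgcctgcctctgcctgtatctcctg
A match is a description of these letters and says nothing about binding in these cells.

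The share of pDC among passing barcodes was higher in the KO-labelled library at both stages. The shares were 1.39% (95% Clopper-Pearson interval 1.16 to 1.65), 0.933% (0.779 to 1.11), 1.05% (0.848 to 1.28) and 0.632% (0.488 to 0.805). The log2 ratio KO over WT was 0.57 (0.21 to 0.94) at the premalignant stage and 0.73 (0.26 to 1.21) at eHCC. From premalignant liver to eHCC it was -0.41 (-0.80 to -0.01) in the KO-labelled and -0.56 (-1.02 to -0.12) in the WT-labelled libraries. Each stage ratio shares a library with each genotype ratio, whereas the genotype ratios of the 2 stages share none. Without the macrophage-RNA barcodes the shares were 1.37%, 0.919%, 1.03% and 0.360%, and the ratio at eHCC became 1.51. Over barcodes with a UMI of Ptprc, the pan-leukocyte gene CD45, they were 2.29%, 1.91%, 1.16% and 0.657%, and the stage ratios became -0.98 in KO and -1.53 in WT. With Siglech at 3 UMIs as the only term they were 2.08%, 1.39%, 1.18% and 0.729%, and the stage ratio in KO became -0.82. The stage ratio in KO thus depended on the other terms of the rule. The order KO above WT at each stage held for each of these denominators and rules. Proliferation genes were rarely detected in members: 2, 2, 4 and 8 had a UMI of Mki67, and 0, 1, 1 and 2 had UMIs of both Mki67 and Top2a. A share of barcodes depends on how many cells of every other kind were recovered from the tissue, so a difference in pDC and a difference in the other cells cannot be told apart.

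**Figure D2:**
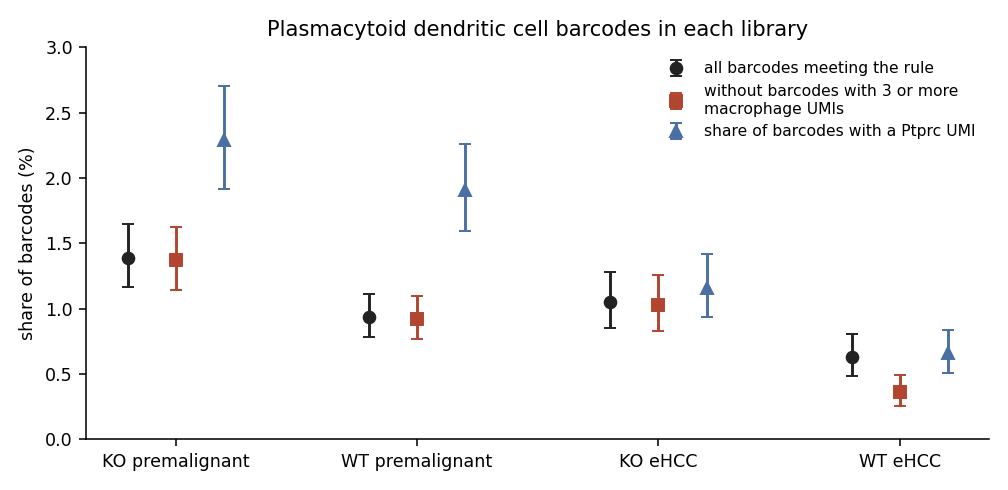
Share of barcodes (%) that met the pDC rule in each library, with 95% Clopper-Pearson intervals (counting error only), for all members, without barcodes holding 3 or more macrophage UMIs, and as a share of Ptprc-positive barcodes. The shares run from 1.39% (KO premalignant) to 0.632% (WT eHCC), and the last falls to 0.360% without the macrophage-RNA barcodes.

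Toll-like receptor pathway genes had list medians near 0 between the labels at each stage with all members, but single genes differed more. Their log2 ratios ran from -1.11 to 0.92 at the premalignant stage and from -2.91 to 1.11 at eHCC. Without the macrophage-RNA barcodes the eHCC ratios ran from -1.29 to 0.95. Tlr7, the receptor for single-stranded RNA, stood at 107, 86.4, 117 and 78.9 CPM in members against 6.80, 6.43, 9.58 and 28.7 in all other barcodes. Tlr9, the receptor for CpG DNA, gave only 2, 5, 3 and 2 UMIs, so its level could not be compared at this depth. Unc93b1, the chaperone that carries both receptors to endosomes, stood at 618, 703, 591 and 515 CPM. Pld4, an endosomal nuclease that limits TLR9 signals, stood at 846, 961, 871 and 631 CPM. Of the genes of the Toll-like receptor pathway, 11 of 21 were higher in KO at the premalignant stage (median log2 ratio 0.05) where 54.4% of all 8620 genes tested were, and 12 of 21 at eHCC (0.11), where 52.4% of 7371 were. The premalignant median was -0.19 without barcodes of any other lineage, and the eHCC median 0.07 without the macrophage-RNA barcodes. A gene counted as tested when it had at least 20 UMIs in both libraries together.

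Interferon transcripts were at or near 0. All 14 Ifna genes were at 0 UMIs in each library, which allows up to 2.27, 2.40, 2.41 and 3.43 CPM per gene (3 UMIs). Ifnb1 had 2 UMIs, both in the WT-labelled eHCC library, and Ifnk, Ifnz and Ifnl2 had 1 each. Ifng, typically a product of T and NK cells, had 13, 25, 2 and 3 UMIs. Of 21 interferon ligand genes, 16 were at 0 throughout. The receptors were present: Ifnar1 stood at 171, 178, 242 and 193 CPM and Ifnar2 at 395, 388, 427 and 293. Of 14 interferon receptor and signalling genes, 5 were higher in KO at the premalignant stage (median log2 ratio -0.02, beside 54.4% of all genes). At eHCC 9 were (0.25, beside 52.4%), and the median was 0.02 without the macrophage-RNA barcodes.

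Interferon-stimulated genes differed between the labels in opposite directions at the 2 stages. In premalignant liver 11 of 54 tested genes of the list were higher in the KO-labelled library, with a median log2 ratio of -0.33, beside 54.4% and a median of 0.05 over all genes. At eHCC 35 of 44 were higher, with a median of 0.38, beside 52.4% and 0.02 over all genes. By 2-fold, 1 gene was higher and 7 lower at the premalignant stage (3.42% and 3% of all genes), and 11 were higher and 2 lower at eHCC (3.74% and 6.39%). The difference between stages was not tested, for want of replicates. The eHCC median was 0.43 without the macrophage-RNA barcodes, with 33 of 42 genes higher. The premalignant median shrank to -0.14, with 13 of 35 genes higher, when barcodes with 3 or more UMIs of any other lineage were left out, which kept 72 and 63 members. The eHCC median shrank to 0.15 when each cell was thinned to 1000 UMIs. Along the stages, 30 of 49 genes were higher at eHCC in the KO-labelled libraries (median 0.22, where 32.5% of all genes were higher and their median was -0.25). In the WT-labelled libraries 4 of 49 were higher (median -0.71, against 34.3% and -0.19). By 2-fold, 9 genes of the list were higher and 6 lower in KO (2.07% and 14.2% of all genes), and 1 was higher and 15 lower in WT (3.84% and 9.32%). The former median was -0.16 in thinned cells, and the latter -0.12 without barcodes of other lineages.

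Isg15, a ubiquitin-like protein made under type I interferon, stood at 51.4, 88.8, 207 and 50.3 CPM, from 68, 111, 258 and 44 UMIs. The KO-labelled eHCC library was the highest, and in premalignant liver the WT-labelled library was above the KO-labelled one. The log2 ratio KO over WT of Isg15 was -0.79 (-1.24 to -0.34) at the premalignant stage and 2.04 (1.58 to 2.54) at eHCC. A single cell held 43% of the UMIs of Isg15 in the KO-labelled premalignant library. Rsad2, which encodes the antiviral enzyme viperin, followed at 18.9, 27.2, 98.9 and 9.15 CPM, with 3.43 (2.41 to 4.68) at eHCC. Its premalignant ratio, -0.52 (-1.33 to 0.26), had an interval that spans 0. Ifi27l2a was the best covered of the group at 610.5, 997, 1748 and 511 CPM, with -0.71 (-0.84 to -0.58) and 1.77 (1.63 to 1.92). Irf7, the master factor of interferon induction in these cells, stood at 161, 283, 313 and 145 CPM, with -0.81 (-1.07 to -0.56) and 1.11 (0.81 to 1.41). Ly6a, the surface protein Sca-1, stood at 719, 1157, 1219.8 and 542 CPM. In each of Ifi27l2a, Irf7 and Ly6a the library labelled WT was the higher at the premalignant stage and the library labelled KO at eHCC. Without the macrophage-RNA barcodes the eHCC ratios were 2.13 for Isg15, 2.59 for Rsad2, 1.39 for Ifi27l2a, 0.51 for Irf7 and 0.77 for Ly6a.

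Not every gene of the group moved this way. Parp14 stood at 37.8, 85.6, 30.6 and 29.7 CPM and so stood out only as high in the WT-labelled premalignant library, where its log2 ratio was -1.18 (-1.69 to -0.68). Ifit1 went the other way at 31.8, 14.4, 4.82 and 3.43 CPM, but 1 cell held 74% of its UMIs in the KO-labelled premalignant library. Cxcl10, a chemokine that draws T cells, was lower in KO at both stages, at 4.54, 30.4, 7.24 and 40.03 CPM. Its log2 ratio at eHCC was -2.47 with all members and 1.53 without the macrophage-RNA barcodes, where 9 and 1 UMIs were left, so its direction rested on those barcodes.

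Between the labels, the list medians in B cells and in all other barcodes had the same signs as in pDC. In B cells the list had medians of -0.28 (16 of 63 genes higher in KO) at the premalignant stage and 0.22 (42 of 58) at eHCC, and in all other barcodes of -0.25 (16 of 63) and 1.03 (61 of 63). Type 1 conventional dendritic cells gave -0.82 and 0.46, and type 2 gave 0.14 and 1.41, from 16 to 54 cells per library. Along the stages in KO the list median was -0.24 in B cells and 0.58 in all other barcodes, against 0.22 in pDC. The difference between these cell types was not tested. The share of all genes higher in each of these other cell groups is not given, here or for the lists below. A shift of the list and a shift of all genes in those cells therefore cannot be told apart. Of Isg15, all other barcodes held 85.7, 96.4, 489 and 72.3 CPM, so the KO-labelled eHCC library was the high one there as well.

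**Figure D3:**
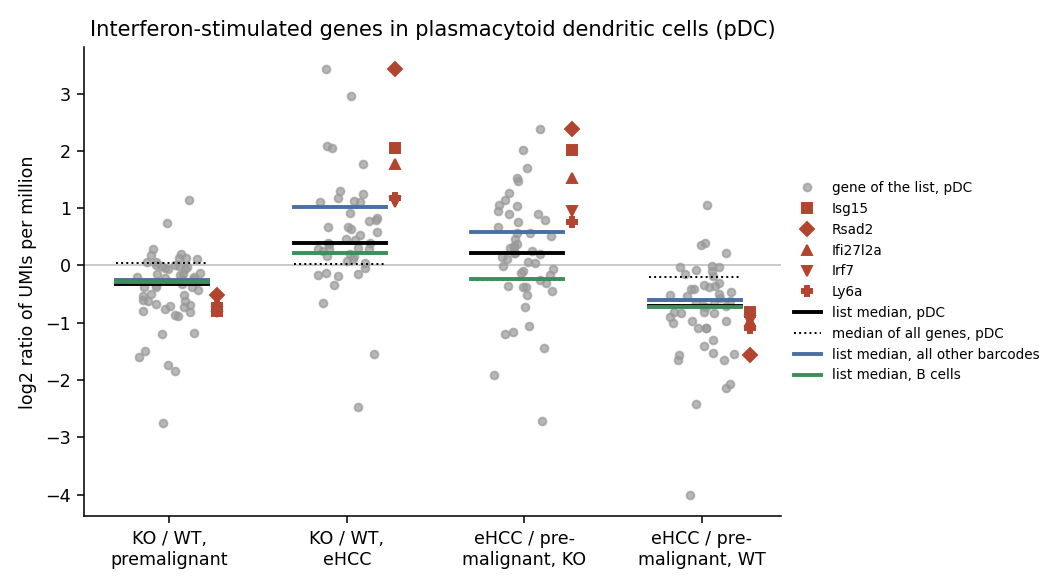
Log2 ratios of CPM for interferon-stimulated genes in pDC, 1 grey point per tested gene, with 5 named genes in red, for KO over WT at each stage and eHCC over premalignant in each label. Black bars are list medians in pDC (-0.33, 0.38, 0.22 and -0.71), dotted bars the median of all genes in pDC, and blue and green bars the list medians in all other barcodes and in B cells.

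Promoters of these genes were searched for the interferon-stimulated response element, spelled TTTC, then 2 bases of any kind, then TTTC, on both strands and with overlapping matches counted. Of 41 tested genes of the list with a RefSeq entry (GRCm38.p6), 21 held it, which is 51.2%, against 3.99% of 27025 genes with an entry. In those 21 genes, 18 of 23 entries had their match before the start, at a median of 57 bases, and 14 within 150 bases. The 150 bases before the start are shown for 3 genes of the list that are named above, with the matches in capitals. Isg15 (chr4:156200819-156200968, minus strand) holds overlapping matches that begin 78, 72 and 66 bases before the start, Rsad2 (chr12:26456453-26456602, minus strand) one at 120, and Ifit1 (chr19:34640739-34640888, plus strand) a pair at 104 and 85:
Isg15: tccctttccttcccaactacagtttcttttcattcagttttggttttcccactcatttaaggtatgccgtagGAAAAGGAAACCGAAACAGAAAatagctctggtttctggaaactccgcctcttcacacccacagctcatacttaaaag
Rsad2: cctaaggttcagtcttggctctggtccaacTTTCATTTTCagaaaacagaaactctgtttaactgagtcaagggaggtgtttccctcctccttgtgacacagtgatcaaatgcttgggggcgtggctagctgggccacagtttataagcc
Ifit1: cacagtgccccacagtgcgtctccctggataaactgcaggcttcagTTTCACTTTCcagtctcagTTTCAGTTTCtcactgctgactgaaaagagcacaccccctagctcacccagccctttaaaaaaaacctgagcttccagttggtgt
Isg15 and Rsad2 had large ratios at eHCC, whereas Ifit1, which holds the same element, had too few UMIs there to be compared. Whether the element goes with the ratios was not tested.

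Antigen presentation genes split by class at eHCC. None of 13 MHC class II genes was higher in the KO-labelled eHCC library (median log2 ratio -1.01, 7 lower by 2-fold), and 15 of 16 class I genes were (median 0.48), where 52.4% of all genes were higher and 6.39% were lower by 2-fold. At the premalignant stage 3 of 13 and 3 of 16 were higher, with medians of -0.15 and -0.26 (54.4% of all genes). H2-Aa, a class II chain, stood at 1735, 1919, 1581 and 3075 CPM, and Cd74, the invariant chain, at 5004, 5517, 4185 and 6974. The WT-labelled eHCC library was the high one for both, and it was also the one with macrophage RNA. Without the macrophage-RNA barcodes 0 of 12 class II genes were higher, with a median of -0.76, and 11 of 16 class I genes, with a median of 0.30, beside 53.9% of all genes. In that set the ratios were -0.77 for H2-Aa and -0.55 for Cd74. Without barcodes of any other lineage the median was -0.39, again with 0 of 10 higher. Ciita, the master regulator of class II transcription, stood at 39.3, 44.0, 19.3 and 85.8 CPM, with a log2 ratio at eHCC of -2.15 (-2.88 to -1.47) and of -1.96 without the macrophage-RNA barcodes. Ciita was lower in the KO-labelled eHCC library in B cells (-1.38), in type 1 (-1.26) and type 2 (-1.58) conventional dendritic cells and in all other barcodes (-1.80) as well. The class II list itself had medians of -0.08 in B cells, 0.01 in type 1 and -0.35 in type 2 conventional dendritic cells, and -1.65 in all other barcodes. Of class I, H2-D1 stood at 2303, 2973, 3263 and 1859.9 CPM, and B2m, the shared light chain, at 1984, 2132, 2971 and 1977. For H2-D1 the log2 ratio was -0.37 (-0.44 to -0.30) at the premalignant stage and 0.81 (0.73 to 0.89) at eHCC, where it was 0.56 without the macrophage-RNA barcodes.

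Immediate-early genes, which respond within minutes to signals and to tissue dissociation, were mostly lower in the KO-labelled eHCC library than in the WT-labelled one. Fos stood at 1329.9, 1212, 308 and 2012 CPM and Jun at 1131, 1163, 202 and 930.0. That library was below the other 3 for both genes. The log2 ratio of Fos at eHCC was -2.71 (-2.87 to -2.55), and -2.34 without the macrophage-RNA barcodes. Over the list, 19 of 21 genes were higher in KO at the premalignant stage (median 0.28, beside 54.4% of all genes) and 4 of 21 at eHCC (median -0.96, beside 52.4%). At eHCC 9 were lower by 2-fold, as were 6.39% of all genes. The eHCC count was 7 of 21 and the median -0.46 without the macrophage-RNA barcodes, and the premalignant median was 0.14. From premalignant liver to eHCC, 5 of 21 were higher in KO (median -0.71, beside 32.5% of all genes) and 15 of 21 in WT (0.73, beside 34.3%, and 0.18 without those barcodes). Fos was also lower in the KO-labelled eHCC library in B cells (-2.31), in type 1 (-2.10) and type 2 (-1.47) conventional dendritic cells and in all other barcodes (-2.51). Of 16 heat shock genes, 1 was higher at eHCC in each label, with medians of -0.62 in KO and -0.63 in WT, where 32.5% and 34.3% of all genes were higher and their medians were -0.25 and -0.19. Hspa1a, an inducible chaperone, stood at 688, 413, 157 and 365 CPM. The handling of each tissue is not given beyond a shared protocol, and its part in these values was not tested.

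**Figure D4:**
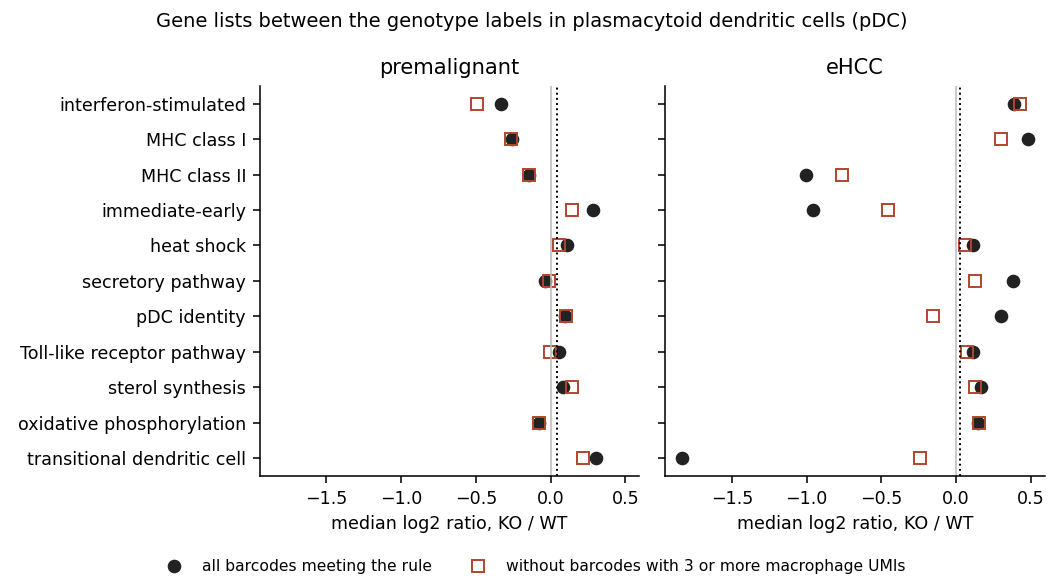
Median log2 ratio of CPM, KO over WT, of 11 gene lists in pDC at each stage, for all members (filled) and without barcodes holding 3 or more macrophage UMIs (open squares); the dotted line is the median of all genes. At eHCC MHC class II (-1.01 and -0.76) and immediate-early genes (-0.96 and -0.46) lay below 0 in both sets, transitional dendritic cell genes moved from -1.83 to -0.24, and the pDC identity list changed sign (0.30 and -0.16).

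The sterol synthesis genes were lower at eHCC than in premalignant liver in both labels. The list was added after the data had been seen. In the KO-labelled libraries 4 of 26 genes were higher at eHCC (median log2 ratio -1.02, 14 lower by 2-fold, where 14.2% of all 8196 genes were). In the WT-labelled libraries 0 of 26 were higher (median -1.12, 15 lower by 2-fold, where 9.32% of 7937 genes were). Over all genes the medians were -0.25 and -0.19. The WT median was -0.81 without the macrophage-RNA barcodes and -0.69 without barcodes of any other lineage. Hmgcs1, which makes the precursor of mevalonate, stood at 238, 222, 78.0 and 60.6 CPM. Both premalignant libraries lay above both eHCC libraries, with log2 ratios of -1.61 (-1.95 to -1.27) in KO and -1.87 (-2.32 to -1.44) in WT, the latter -1.60 without the macrophage-RNA barcodes. Insig1, a feedback sensor of the pathway, stood at 207, 154, 76.4 and 58.3 CPM. For this gene too the premalignant and eHCC libraries did not overlap. Ebp, a late enzyme of the pathway, was level at 90.8, 105, 101 and 103 CPM. Other cells were not uniform: the list had medians of -1.14 (KO) and -0.06 (WT) in B cells, -1.17 and -1.39 in type 1 and -1.47 and -0.92 in type 2 conventional dendritic cells, and -1.12 and -0.56 in all other barcodes. Between the labels the list in pDC was near level, with medians of 0.08 and 0.16. The latter was 0.12 without the macrophage-RNA barcodes and -0.15 without barcodes of any other lineage.

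**Figure D5:**
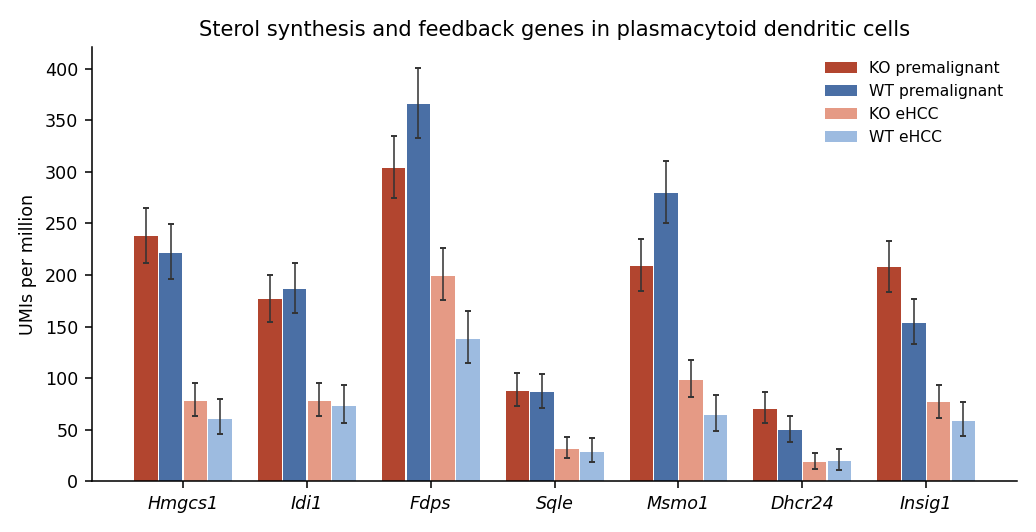
CPM of 7 sterol synthesis and feedback genes in pDC, 1 bar per library with 95% Poisson intervals (counting error only). The bars of both premalignant libraries are the taller pair for each gene, for example Hmgcs1 at 238 and 222 CPM against 78.0 and 60.6.

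The sterol response element was searched in the same promoter windows in its spelling TCACCCCAC, on both strands. It was found in 0.614% of all genes and in 1 of 19 genes of the sterol list with an entry, Hmgcs1, where it begins 137 bases before the start. The 150 bases before the start of Hmgcs1, chr13:119690201-119690350 on the plus strand (GRCm38.p6), are given with the element in capitals:
Hmgcs1: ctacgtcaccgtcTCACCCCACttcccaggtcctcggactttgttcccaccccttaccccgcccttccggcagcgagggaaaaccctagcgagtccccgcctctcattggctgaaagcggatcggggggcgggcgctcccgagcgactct
Other spellings of the element were not searched.

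Secreted products other than interferon were led by Ccl4, a chemokine that draws T cells and monocytes. Ccl4 stood at 3192, 3242, 4839 and 4267 CPM in members against 450.2, 236, 809.9 and 938 in all other barcodes. Genes were ranked for spread between members by the variance over cells relative to Poisson counting, taking the lowest of the 4 libraries. Ccl4 came first at 49.4 times, and of the genes named here Ccl3 (25.4 times), Cd74 (21.6), Hspa1b (20.9), Hspa1a (17.2) and Ly6d (16.4) followed. Ly6a (10.7), Ifi27l2a (9.27) and Fos (8.42) came lower in that order. The intervals of the log2 ratios do not include this spread between cells. Il12a, a subunit of interleukin 12, stood at 4.54, 7.998, 26.5 and 35.5 CPM, with stage log2 ratios of 2.55 (1.27 to 4.09) in KO and 2.15 (1.08 to 3.34) in WT, the latter 2.23 without the macrophage-RNA barcodes. Both eHCC libraries were thus the high ones for Il12a. It had no UMI in either kind of conventional dendritic cell, while in B cells it stood at 26.4, 28.5, 8.12 and 30.0 CPM. Tnf stood at 24.96, 67.2, 38.6 and 50.3 CPM. Of 12 cytokine and effector genes tested, 8 were higher in KO at the premalignant stage (median 0.19, beside 54.4% of all genes), and 3 of 10 at eHCC (-0.40, beside 52.4%). Without the macrophage-RNA barcodes 3 of 7 were (-0.30).

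Secretory pathway genes, read against 54.4% of all genes higher in KO at the premalignant stage and 52.4% at eHCC, were near level in premalignant liver (15 of 33, median -0.04). At eHCC 28 of 33 were higher (median 0.38), and 25 of 33 without the macrophage-RNA barcodes (0.12). Hspa5, the main chaperone of the endoplasmic reticulum, stood at 708, 666, 1069.5 and 562 CPM, and its eHCC log2 ratio of 0.93 was 0.82 without those barcodes. The pDC identity genes had medians of 0.10 (23 of 37) and 0.30 (27 of 37), and the latter became -0.16 (16 of 37) without the macrophage-RNA barcodes. Bcl11a, a factor needed for pDC development, stood at 728, 642, 299.9 and 483 CPM and was lower at eHCC in both labels. In the lists that follow, the premalignant median comes first, then that at eHCC with all members, then that at eHCC without the macrophage-RNA barcodes.

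Lineage factors had 0.17 (13 of 21 higher in KO), -0.10 (9 of 22) and -0.24 (5 of 21). Chemokine receptor and homing genes had 0.21 (11 of 18), 0.16 (9 of 16) and 0.10 (9 of 14), and oxidative phosphorylation genes -0.08 (10 of 27), 0.15 (21 of 27) and 0.15 (21 of 27). Cytokine receptor and survival genes had -0.06 (6 of 14), -0.08 (7 of 14) and -0.09 (6 of 12). Several of these counts lie near the share of all genes, which was 53.9% at eHCC without the macrophage-RNA barcodes. For other lists the eHCC value depended on those barcodes. Lectin and inhibitory receptors had 0.02 (10 of 16), 0.25 (11 of 16) and -0.003 (7 of 15). Glycolysis and hypoxia genes had -0.10 (7 of 19), -0.31 (4 of 18) and 0.091 (8 of 16). Genes of transitional dendritic cells, which also express macrophage-type genes such as Cx3cr1, had 0.30 (9 of 13), -1.83 (2 of 13) and -0.24 (3 of 10). Cell cycle genes, from few UMIs, had -0.51 (1 of 9), -0.27 (5 of 12) and 0.96 (7 of 8). Glucocorticoid targets had -0.03 (4 of 9), 0.05 (5 of 9) and -0.018 (4 of 8), and heat shock genes 0.11 (10 of 16), 0.11 (9 of 14) and 0.06 (7 of 13).

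The single genes with the largest ratios were mostly transcripts of other cells. In premalignant liver the highest in KO were Selenbp2, Tat, Gzma, Car3, Il18rap, Fbp1, Ccl5 and Hpd, which hepatocytes, NK cells or T cells express. The lowest there were Egfl7, Gm42031, Mup17, Ehd3, Fabp4, Upp1, Cd36 and Mgll, several of them endothelial. Gm42031 stood higher in members (15.9, 88.0, 5.63 and 57.2 CPM) than in all other barcodes (4.16, 26.8, 2.37 and 44.1). It was lower in KO at both stages in both. At eHCC the lowest in KO were the macrophage genes Trem2, Spp1, Cxcl16, Apoe, Lyz2, Csf1r, C1qc and C1qb. The highest included Id3, 1810065E05Rik, Rsad2, Grasp, Apod, Klk1b11 and Klf10. Along the stages the highest in KO included Apod, Gcnt2, Nr4a3, Grasp and Rsad2 and the lowest included the hepatocyte genes Car3, Bhmt, Gsta3 and Serpina1e with Igfbp7. In WT the highest included Trem2, Tgfbi, C1qb, Cd14 and Apoe, and the lowest Rspo3, Aqp1, Ptprb, Fabp4, Plpp3 and Egfl7. Grasp, which encodes a scaffold protein of membrane trafficking, stood at 92.3, 28.8, 388 and 56.0 CPM against 45.8, 58.4, 27.1 and 26.1 in all other barcodes, so members were above the rest except in the WT-labelled premalignant library. The KO-labelled library was the higher at both stages, with log2 ratios of 1.68 (1.13 to 2.26) and 2.79 (2.36 to 3.24), and 2.67 for the latter without the macrophage-RNA barcodes. At eHCC Grasp was also higher in KO in B cells (1.43) and in type 1 (1.84) and type 2 (1.67) conventional dendritic cells, but level in all other barcodes (0.06).

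A second set of genes, chosen after values had been seen, needed at least 2 times the CPM of all other barcodes in the higher library. Those named here met that level in each of the 4 libraries. Cd209d, a C-type lectin, stood at 354, 182, 213 and 80.1 CPM, with log2 ratios KO over WT of 0.96 (0.73 to 1.20) and 1.41 (1.03 to 1.81). It was 1.05 at eHCC without the macrophage-RNA barcodes. Klk1b27 was higher in KO at both stages as well (1.15 and 0.93, the latter 0.39 without the macrophage-RNA barcodes). Lrp8, a receptor for reelin and apolipoprotein E, stood at 130.1, 95.2, 219 and 77.8 CPM, highest in the KO-labelled eHCC library. Ly6d, an early lymphoid marker, stood at 2933, 3945, 2182 and 1693 CPM and was lower at eHCC in both labels.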

How the data were processed

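The deposited matrices hold whole-number UMI counts that were not normalized. Per the file headers, the authors made them with Cell Ranger 3.0.1. The submitters' processing notes name bcl2fastq 2.20.0 and the builds GRCh38 and mm10 without a role for each. Tissue was cut, digested and dissociated before droplet capture, per the labels' protocols. Each of the 4 groups is 1 library, taken from the labels.

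Counts were summed over member barcodes of a library and scaled to a sum of 1e+06 over those members (CPM). Log2 ratios have exact conditional binomial intervals, CPM Poisson intervals and shares Clopper-Pearson intervals, all at 95%. They cover counting error only, not the spread between cells or between animals. A count of 0 was set to a floor of 3 UMIs. Genes needed 20 UMIs in both libraries together. No test between groups and no doublet caller was run. Barcodes with 3 or more UMIs of another lineage were counted and left out as an alternative. B cells needed Ms4a1 and at least 2 UMIs of Cd79a, type 1 conventional dendritic cells Xcr1 and Clec9a, and type 2 at least 2 UMIs of Cd209a, all without Siglech.

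Genes with the largest ratios were the 8 highest and 8 lowest between labels, and the 6 highest and 6 lowest between stages, by the interval bound nearest 0, with UMIs in at least 5 cells and at most 50% in 1 cell, leaving out genes of the rule, receptor segments, mitochondrial and sex-linked genes and the hepatocyte and erythroid lists. The 15 genes ranked by level needed 20 UMIs in members of each library. All genes of the lists could also be named. Some genes that these rules named are not reported here. A second set needed 2 times the CPM of all other barcodes and a UMI in 20% of member cells in the higher library, and was chosen after values had been seen, as were the sterol and striated muscle lists and the macrophage-RNA alternative. The members and all lists were chosen with earlier results of these data known.

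Promoter letters are from RefSeq (GRCm38.p6). The spread between cells is the variance of UMIs divided by that of Poisson counts at the cells' depths, for genes with a mean of at least 0.5 UMIs. Only the log2 ratios and their intervals were tried on simulated data. Those were Poisson sums per gene, without spread between cells, RNA of other cells or the rule for members. The calculations used python 3.11.15, numpy 2.4.6, scipy 1.17.1, pandas 2.3.3 and matplotlib 3.10.9.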

Additional observations from a re-analysis of the deposited data

Results flagged for a closer look

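Flagged here are 8 genes and the interferon-stimulated list, whose log2 ratio KO over WT in pDC had opposite signs at the 2 stages, with 1 library in each group. They are not all such cases: Isg15, H2-D1 and the medians of the MHC class I and immediate-early lists, given above, changed sign as well. The share of all genes that did so is not given. Whether these differences between stages exceed the spread between animals was not tested. The interferon-stimulated list had medians of -0.33 and 0.38, Ifi27l2a -0.71 and 1.77, Ly6a -0.69 and 1.17, and Irf7 -0.81 and 1.11, premalignant value first. Ccr2, the receptor for monocyte chemoattractant chemokines, had 1.20 and -1.50, and Ptger4, a prostaglandin E2 receptor, 1.36 and -0.94. Without the macrophage-RNA barcodes their eHCC ratios were -0.77 and -0.85. Btla, an inhibitory receptor, had 0.97 and -2.05 (-1.50 without those barcodes). Lyz2, a macrophage and neutrophil gene, had 1.17 and -5.15, and its eHCC ratio was -1.84 without the macrophage-RNA barcodes. Id3 had -0.26 and 3.60 (2.96 without them).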

How the results depend on the processing

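Limits: each group is 1 library, so no value separates label or stage from animal, capture or sequencing run. No paired analysis was possible because each group has 1 library and no result comes from a test. Of 40 alternative ratios of shares 34 moved by less than their interval. The others were the eHCC ratio KO over WT at 1.43 without barcodes of other lineages and 1.51 without macrophage-RNA barcodes, the stage ratio in KO at -0.98 over Ptprc barcodes and -0.82 with Siglech as the only term, and the stage ratio in WT at -1.53 over Ptprc barcodes and -1.35 without macrophage-RNA barcodes. The interferon-stimulated median kept within its interval in 40 of 44 alternatives, except -0.14 (premalignant) and -0.12 (stage, WT) without barcodes of other lineages, and 0.15 (eHCC) and -0.16 (stage, KO) in cells thinned to 1000 UMIs. Counting medians near 0 as well, 90 of 944 list medians had another sign than with all members. Where the interval with all members had left out 0, signs turned for the identity list at eHCC (-0.12 without other lineages, -0.16 without macrophage RNA), lectin and inhibitory receptors along the stages in WT (0.018 without macrophage RNA) and glycolysis genes at eHCC (0.24, 0.20 and 0.091 without other lineages, thinned and without macrophage RNA). They also turned for Rab43 (eHCC 0.76, stage in WT -0.94 without other lineages and -0.16 without macrophage RNA), Bzw2 (stage in WT -0.83, thinned) and Smim6 (stage in WT 0.24, thinned). In the other lists 841 values held, 53 moved and 6 reversed, and in named genes 970 held, 195 moved and 5 reversed.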

Other observations

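A few genes above the other barcodes in each of the 4 libraries differed along the stages. They were chosen after their values had been seen. Tifa, an adaptor of NF-kappaB signalling, stood at 119.5, 126, 372 and 221 CPM, with log2 ratios eHCC over premalignant of 1.64 in KO and 0.81 in WT (0.95 without the macrophage-RNA barcodes). Both eHCC libraries were above both premalignant ones. Plaur, the urokinase receptor, stood at 354, 435, 932 and 451 CPM and was highest in the KO-labelled eHCC library. Pmaip1, which encodes the death-promoting protein NOXA, stood at 111, 102, 161 and 269.9 CPM, with stage ratios of 0.53 in KO and 1.40 in WT (1.47 without those barcodes).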
